A study of Mus musculus with 5 samples.

Results

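The Bcl2 family is a group of proteins that decide at the mitochondrial membrane whether a cell lives or dies. The 10 genes described here were chosen by symbol from the 55411 genes of the count tables through the annotation of their Ensembl identifiers. They are the pro-survival genes *Bcl2*, *Bcl2l1*, *Bcl2l2* and *Mcl1*, the effectors *Bax* and *Bak1*, and the BH3-only genes *Bad*, *Bid*, *Bcl2l11* and *Bbc3*. Their transcripts were measured in olfactory sensory neurons (OSNs) that transcribe the odorant receptor gene *Olfr151*, after exposure to acetophenone, a ligand of that receptor, or to the solvent alone.

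All mice were 7 weeks old, male and homozygous for *Olfr151*tm26Mom (*Olfr151*GFP/GFP), an allele in which the *Olfr151* locus itself drives a tau-GFP reporter, so that the neurons expressing the receptor fluoresce. Exposed mice received 5% acetophenone in DMSO for 5 h and control mice received DMSO for the same time. Fluorescent cells of the main olfactory epithelium were sorted and pooled from 4 mice per library. Control pools 1, 2 and 3 and exposed pools 1 and 3 were analysed, and exposed pool 2 was not analysed here. The sort gated on GFP and on Hoechst, which stains nucleated cells. The sample labels add exclusion of cells stained by DRAQ7, a dye of dead cells, while the methods of the study do not name it for these pools. Values are listed in the order of control pools 1, 2 and 3, then exposed pools 1 and 3. Each pool held 200 sorted cells by the sample characteristics and the methods, and the extract protocol in the labels names 400.

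Libraries held between 42780403 and 49527380 counts. Spike-in RNA took 0.249% to 0.631% of the counts and mitochondrial genes 0.707% to 1.18%. The labelled cell type was visible in every library, with 97297 to 166294 counts of *Olfr151*, 10375 to 17217 of the reporter and 517814 to 774399 of *Omp*, the marker of mature OSNs. Summed over 10 fixed markers of mature OSNs, control pools had 69940, 79760 and 74790 TPM (counts per exon length, with each library scaled to the same sum) and exposed pools 57350 and 57410. Myeloid markers, 14 genes of macrophages and their relatives, summed to 436, 94.3 and 87.9 TPM in the controls, against 596 and 318 TPM after exposure. The part of either shift in the results below was not tested. A pool of neurons cannot tell fewer cells of a type from less RNA per cell.

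In healthy cells the pro-survival proteins hold the effectors in check. BH3-only proteins are the sensors of stress, which bind the pro-survival proteins or the effectors and so release the effectors, which open the outer mitochondrial membrane and let cytochrome c out to activate caspases. OSNs are replaced throughout life from stem cells of the epithelium, and their death and survival depend on this pathway.

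Transcription factors act on these genes through sequences such as those of their promoters. RefSeq gives 16 windows for the 10 members on GRCm38.p6, each from 250 bases before to 50 bases after a transcription start. *Bcl2l1* had the highest level of the 10 members. Shown are its 5′-most window and those of *Mcl1*, *Bcl2* and *Bcl2l11*, the members with the largest fitted differences between conditions. They are written 5′ to 3′ on the strand of the gene, and capitals mark matches to the searched motifs.
Bcl2l1 (chr2:152831679-152831978, minus strand): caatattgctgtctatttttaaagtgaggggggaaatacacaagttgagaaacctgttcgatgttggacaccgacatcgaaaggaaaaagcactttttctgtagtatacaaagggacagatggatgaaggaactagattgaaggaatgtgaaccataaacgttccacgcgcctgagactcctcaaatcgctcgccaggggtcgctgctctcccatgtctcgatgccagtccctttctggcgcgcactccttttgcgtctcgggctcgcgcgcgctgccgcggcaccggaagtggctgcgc
Mcl1 (chr3:95658471-95658770, plus strand): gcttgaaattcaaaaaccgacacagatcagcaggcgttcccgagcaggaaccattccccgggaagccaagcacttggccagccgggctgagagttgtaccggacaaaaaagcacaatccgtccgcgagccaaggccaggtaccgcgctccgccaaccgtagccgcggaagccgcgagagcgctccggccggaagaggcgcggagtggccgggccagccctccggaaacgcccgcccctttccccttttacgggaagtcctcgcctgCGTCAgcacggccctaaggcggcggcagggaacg
Bcl2 (chr1:106714241-106714540, minus strand): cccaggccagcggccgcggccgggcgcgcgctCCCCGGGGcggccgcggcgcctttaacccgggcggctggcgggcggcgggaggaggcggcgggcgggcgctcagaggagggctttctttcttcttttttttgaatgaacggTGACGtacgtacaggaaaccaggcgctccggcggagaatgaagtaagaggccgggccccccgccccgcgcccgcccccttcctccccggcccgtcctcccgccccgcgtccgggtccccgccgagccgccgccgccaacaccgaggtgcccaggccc
Bcl2l11 (chr2:128125788-128126087, plus strand): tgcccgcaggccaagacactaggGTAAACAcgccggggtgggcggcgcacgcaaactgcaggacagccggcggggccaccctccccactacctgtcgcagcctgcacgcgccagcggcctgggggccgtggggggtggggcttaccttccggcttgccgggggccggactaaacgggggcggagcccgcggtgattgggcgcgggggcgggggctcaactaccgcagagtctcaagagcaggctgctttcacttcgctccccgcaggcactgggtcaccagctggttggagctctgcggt

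Motifs were searched on both strands. The short cyclic AMP response element TGACG, bound by CREB, which neuronal activity regulates, was in 3 of the 16 windows, those of *Mcl1*, *Bcl2* and *Bbc3*, and in 20.8% of all 32851 RefSeq windows. Its full palindrome TGACGTCA, which contains the short form, was in 0 of 16 and in 1.79% of all windows. A forkhead site, TGTTTAC, lay in 2 windows, of *Bcl2l11* and *Bbc3*, against 3.65% of all. The Ebf site CCCNNGGG, for the Ebf factors of OSN differentiation, was in 5 windows of 4 members (*Bcl2*, *Bcl2l1*, *Bid* and *Bbc3*) against 13.7% of all. The AP-1 site TGANTCA and the homeodomain site TAATTA were in 0 of 16, against 7.81% and 5.29%. GC boxes (GGGCGG, not capitalized) were in 11 windows of 8 members, against 35.7% of all windows. The printed windows of *Bcl2*, *Bcl2l11*, *Mcl1* and *Bcl2l1* had GC contents of 76.0%, 71.0%, 65.7% and 52.3%, and the median window 52.7%. The *Bcl2l1* window shown has no marked match.

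The level of each member, compared per length in TPM, spanned a wide range. In control pools *Bcl2l1* was highest, followed by *Bad*, *Bax*, *Mcl1*, *Bbc3*, *Bcl2*, *Bcl2l2* and *Bcl2l11*, with *Bak1* and *Bid* at or near 0. Control pools of neighbors in this order did not overlap between *Bcl2l1* and *Bad*, *Bad* and *Bax*, *Bcl2* and *Bcl2l2*, or *Bcl2l11* and *Bak1*. The gap between *Bcl2l1* and *Bad* was narrow, since the lowest control pool of *Bcl2l1* was at 124.4 TPM and the highest of *Bad* at 124.3 TPM, both in control pool 1. All other neighbors overlapped. Over all 5 libraries, only *Bcl2l1* from *Bad* and *Bcl2l11* from *Bak1* stayed separate.

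**Figure D1:**
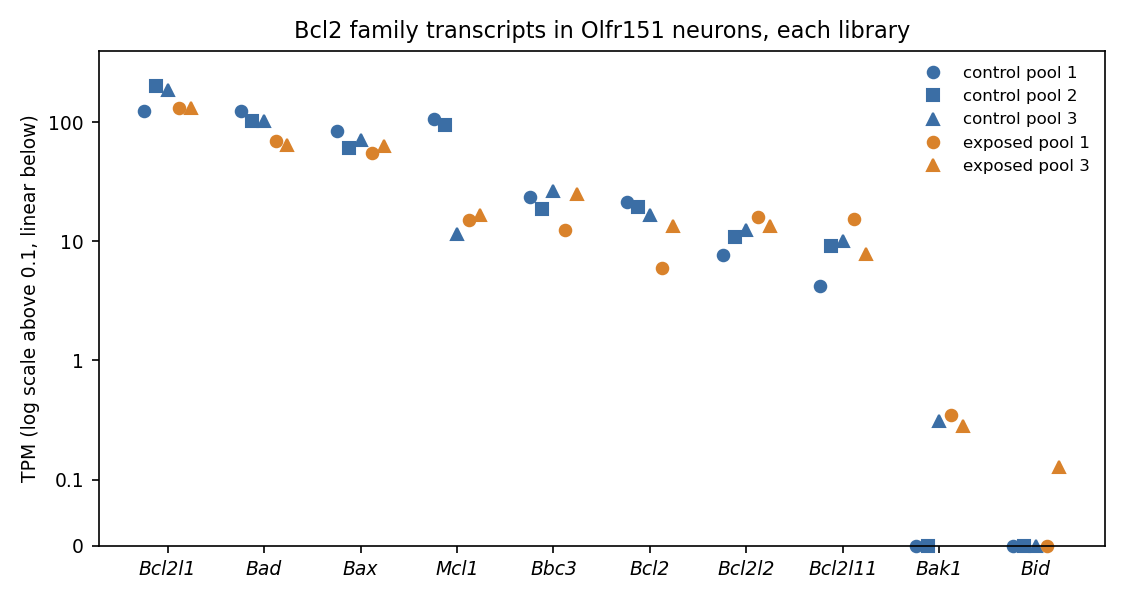
Level of each of the 10 genes in each library, in TPM on an axis that is logarithmic above 0.1 and linear below, with control and exposed pools as separate points. *Bcl2l1* lies between 124.4 and 201.9 TPM, and *Bak1* and *Bid* lie below 0.35 TPM in every library.

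Of the 10 members, 8 passed the count filter, which asks that all libraries of a condition have 143 counts or more. None of the 8 was called higher or lower after exposure. A call needed an adjusted p-value under 0.1 by edgeR's quasi-likelihood test and a log2 fold change beyond 0.5 in size. Among all 10025 genes tested, 5.29% were called, 3.43% higher and 1.86% lower. For 6 of the 8 the fitted log2 fold change was below 0 and for 2 it was above. Their median log2 fold change was -0.17, against -0.026 over all genes tested. The conditions did not overlap for 3 of the 8 (*Bcl2*, *Bcl2l2* and *Bad*), which is 37.5%, and for 40.0% of all genes tested. DESeq2, run as an alternative, called 1 of the 8, *Mcl1*, beside 726 genes higher and 768 lower among all 10025. Only *Bad* had an unadjusted p-value under 0.05, 12.5% of the 8, against 19.2% of all genes tested. Neither share of the members was above its background. P-values measure the spread between pools of different mice.

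**Figure D2:**
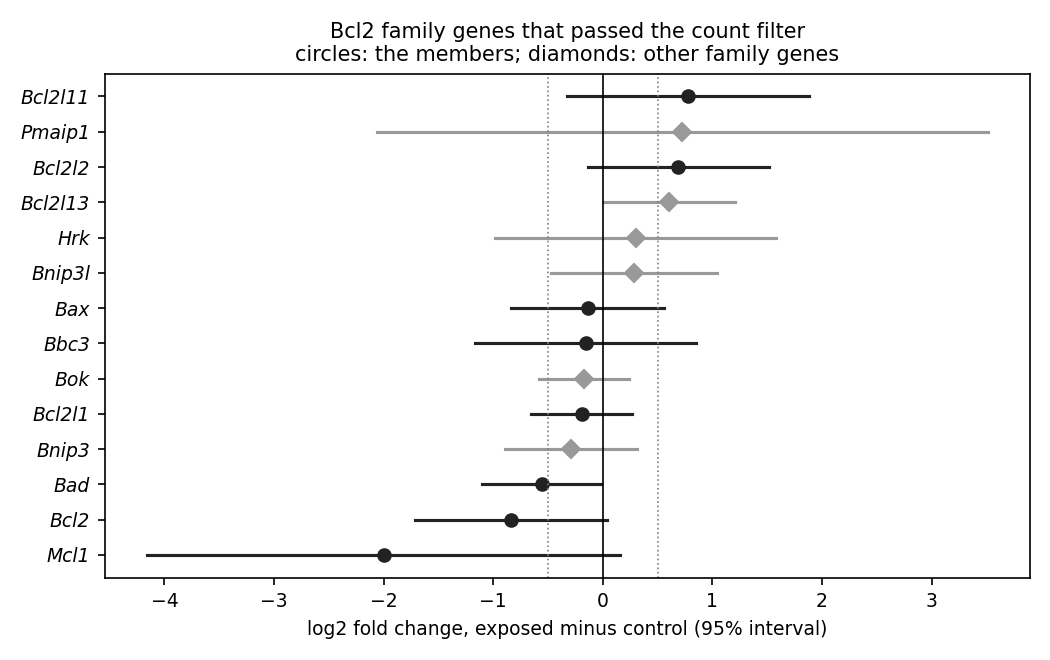
Fitted log2 fold change of exposed over control pools, with 95% confidence intervals. Circles are the 8 tested members, and diamonds are the 6 tested genes of the other Bcl2 family list. The estimates run from -2.0 for *Mcl1* to 0.78 for *Bcl2l11*. Among the members, only the interval of *Bad* lies wholly on one side of 0, and among the other genes only that of *Bcl2l13* (0.00077 to 1.20).

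Among the pro-survival genes, *Bcl2l1* encodes Bcl-xL, the main pro-survival protein of many mature neurons (ENSMUSG00000007659, chr2:152780668-152831728, minus strand). It had 7709, 12603 and 11368 counts in the controls, against 8666 and 8109 after exposure. The exposed pools lay inside the range of the controls. Its level was 170.8 ± 40.9 TPM in control pools (SD, n = 3) and 132.2 ± 1.75 in exposed pools (SD, n = 2), and the control level was above that of 90.4% of the tested genes. The log2 fold change was -0.19 with an SE of 0.19 and a 95% confidence interval from -0.65 to 0.27 (adjusted p = 0.644).

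*Bcl2*, the founding pro-survival gene of the family, was at 19.2 ± 2.41 TPM in control pools (SD, n = 3) and 9.70 ± 5.18 TPM in exposed pools (SD, n = 2). The gene lies at chr1:106538178-106714274 on the minus strand (ENSMUSG00000057329). Its counts were 2653, 2433 and 2033 in the controls, against 798 and 1621 after exposure. Both exposed pools were below every control pool, and exposed pool 1 was the lowest of all. The log2 fold change was -0.84 (SE 0.37, 95% interval -1.72 to 0.03, adjusted p = 0.277). Leaving out any library in turn gave values between -1.49 and -0.42, none of them called. Of its 9157 exon bases, 558 overlap *D630008O14Rik* on the opposite strand.

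*Bcl2l2* encodes Bcl-w, another pro-survival protein (ENSMUSG00000089682, chr14:54883377-54888234, plus strand). Its counts were 460, 662 and 745 in the controls, against 1030 and 798 after exposure, so both exposed pools stood above the controls. The fold change was in the opposite direction to that of *Bcl2*, at 0.69 on the log2 scale (SE 0.35, 95% interval -0.14 to 1.52, adjusted p = 0.338). *Bcl2l2* was below *Bcl2* in every control pool, with TPM ratios of 0.356, 0.558 and 0.752, and above it in exposed pools 1 and 3, with ratios of 2.65 and 1.01. This ratio was computed after the separate values had been seen and was given no test. Of its 4462 exon bases, 594 are shared with the same-strand gene *Gm20521*.

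*Mcl1* encodes a short-lived pro-survival protein whose amount follows its transcription and degradation closely (ENSMUSG00000038612, chr3:95658788-95663176, plus strand). Counts were 4917 and 4442 in control pools 1 and 2, 531 in control pool 3, and 750 and 763 in exposed pools 1 and 3. Control pool 3 was therefore the lowest of the 5 libraries, and the conditions overlapped. The levels were 71.2 ± 51.9 TPM in control pools (SD, n = 3) and 16.0 ± 1.16 TPM in exposed pools (SD, n = 2). The fitted log2 fold change of -2.0 was the largest of the family, with an SE of 0.89, a 95% interval from -4.16 to 0.16 and an adjusted p of 0.293. Control pool 3 decided this result: without it the log2 fold change was -2.48, with an SE of 0.29 and an adjusted p of 0.00988, and *Mcl1* was called lower. DESeq2's Wald test on all 5 libraries also called it lower, at -1.98 with an adjusted p of 0.0593. No other alternative called it.

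**Figure D3:**
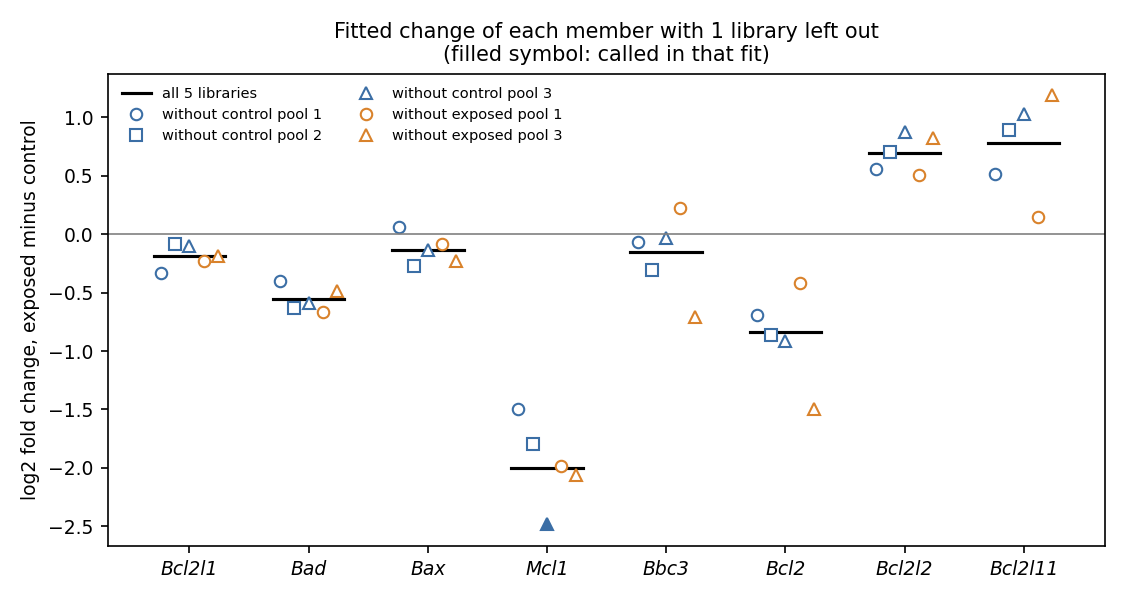
Log2 fold change of each tested member from the fit of all libraries and from fits that leave out a single library. *Mcl1* is at -2.48 without control pool 3, the only called of the points, and *Bax* and *Bbc3* change sign, to 0.06 without control pool 1 and to 0.22 without exposed pool 1.

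The split of *Mcl1* between control pools was shared by other genes. The 3 tested genes nearest to it, by the Euclidean distance of log2 CPM (counts scaled to library size) centered on each gene's mean over the 5 libraries, were *Smap1* (0.292), *Ppp6r1* (0.374) and *Syn2* (0.397). The median distance over the 10024 other genes was 3.1. *Smap1*, which regulates Arf GTPases in vesicle traffic, had 2009, 1562 and 204 counts in the controls, against 272 and 346 after exposure. *Ppp6r1*, a regulatory subunit of protein phosphatase 6, had 8416, 10318 and 983, then 1332 and 1294. *Syn2*, a synaptic vesicle protein, had 11466, 11049 and 1657, then 2166 and 1731. In each, control pool 3 sat with the exposed pools, which follows from choosing them by distance to *Mcl1* over the same libraries. Their log2 fold changes were -1.91, -2.19 and -1.92 with adjusted p-values of 0.328, 0.263 and 0.260, none of them called. Control pool 3 was more than 2-fold below both other control pools for 502 of the 10025 tested genes (5.01%). Control pool 1 was so for 509 (5.08%) and control pool 2 for 145 (1.45%). A narrower count asked that both exposed pools be also that low, with the control pool within 2-fold of their range. It held for 229 genes (2.28%) in control pool 3, 9 in control pool 1 and 4 in control pool 2. *Mcl1* was the only member among them.

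**Figure D4:**
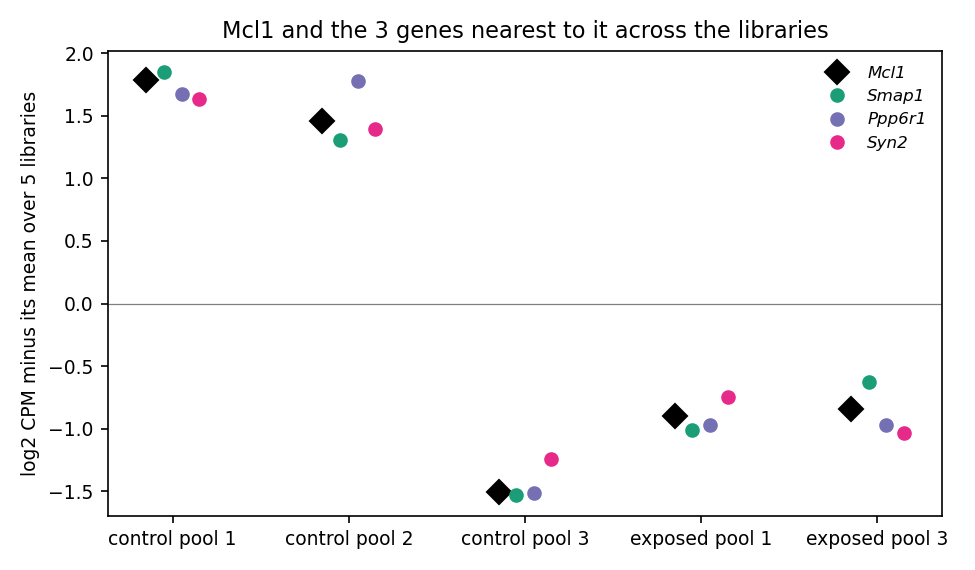
Log2 CPM of *Mcl1* and of the 3 genes nearest to it, each minus its own mean over the 5 libraries. Control pools 1 and 2 lie above 0, and control pool 3 and both exposed pools lie below 0, for all 4 genes.

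Of the effectors, *Bax* was measured well and *Bak1* hardly at all. *Bax* (ENSMUSG00000003873, chr7:45461697-45466898, minus strand) had 1820, 1310 and 1487 counts in the controls, against 1250 and 1329 after exposure. The conditions overlapped, and the log2 fold change was -0.14 (SE 0.29, 95% interval -0.84 to 0.56, adjusted p = 0.839). Its level was 72.5 ± 12.3 TPM in control pools (SD, n = 3) and 59.3 ± 6.13 TPM in exposed pools (SD, n = 2). *Bak1* (ENSMUSG00000057789, chr17:27019810-27029009, minus strand) had 0, 0 and 10 counts in the controls, against 12 and 9 after exposure. It did not pass the filter and was not tested. A count of 0 allows up to 3 counts, which is 0.0606 to 0.0701 CPM at these depths. Such limits cover counting error only, since reads carried no molecular identifiers. Of the 2407 exon bases of *Bak1*, 614 overlap *Ggnbp1* on the opposite strand, and 192 of the 1576 exon bases of *Bax* are shared with *Gm45808* on the same strand.

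Among the BH3-only genes, *Bad*, whose protein is inactivated by survival kinases, was the most abundant (ENSMUSG00000024959, chr19:6941861-6951899, plus strand). It had 4294, 3563 and 3521 counts in the controls, against 2560 and 2182 after exposure. Both exposed pools were below every control pool. The levels were 110.0 ± 12.4 TPM in control pools (SD, n = 3) and 66.9 ± 3.53 TPM in exposed pools (SD, n = 2). On the log2 scale the fold change was -0.56 (SE 0.23, 95% interval -1.10 to -0.014), with an unadjusted p of 0.0458 and an adjusted p of 0.252 from the fit over all genes. Leaving out any library gave values from -0.67 to -0.40, none of them called. Of its 2558 exon bases, 524 overlap *Gpr137* on the opposite strand.

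*Bcl2l11* encodes Bim, which links growth factor withdrawal to neuronal death (ENSMUSG00000027381, chr2:128126038-128162547, plus strand). Counts were 456, 1010 and 1073 in the controls, against 1796 and 840 after exposure. Exposed pool 1 was the highest library and exposed pool 3 lay among the controls. The log2 fold change was 0.78 with an SE of 0.47 and a 95% interval from -0.32 to 1.88 (adjusted p = 0.413). It was 0.14 without exposed pool 1 and 1.19 without exposed pool 3.

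*Bbc3* encodes Puma, a target of p53 (ENSMUSG00000002083, chr7:16308393-16318205, plus strand). It had 684, 543 and 745 counts in the controls, against 381 and 700 after exposure. Exposed pool 1 was the lowest library and exposed pool 3 lay within the controls. The log2 fold change was -0.16 (SE 0.43, 95% interval -1.17 to 0.85, adjusted p = 0.879). *Bid*, whose protein is cleaved by caspase-8 downstream of death receptors (ENSMUSG00000004446, chr6:120891930-120916853, minus strand), had 0 counts in 4 libraries and 6 in exposed pool 3, and was not tested. Of its 3550 exon bases, 628 overlap *Bcl2l13* on the opposite strand.

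Summed over the members of each class, the pro-survival genes reached 260.0, 327.8 and 226.8 TPM in the controls, against 168.2 and 177.1 TPM after exposure. The effector sum was 85.5, 61.1 and 71.1 TPM in control pools and 55.3 and 63.9 TPM in exposed pools. The BH3-only sum was 152.3, 130.4 and 139.6 TPM in control pools and 97.3 TPM in both exposed pools. Exposed pools lay below the controls for the pro-survival and BH3-only sums and overlapped them for the effectors. The ratio of pro-survival to all other members was 1.29 ± 0.362 in control pools (SD, n = 3) and 1.10 ± 0.0023 in exposed pools (SD, n = 2), with overlapping pools. These sums were given no test. They rest on few genes. *Bcl2l1* made up 47.9%, 61.6% and 82.0% of the pro-survival sum in the controls, against 77.9% and 75.3% after exposure. Without *Bcl2l1*, *Bax* and *Bad*, the highest member of each class, the BH3-only sum was 30.8 TPM in control and 30.4 TPM in exposed pools. The pools then overlapped for the BH3-only and the pro-survival sums, so the lower BH3-only sum rests on *Bad*. The ratio without these members was 4.83, 4.49 and 1.11 in control pools and 1.32 in both exposed pools. That split restates the counts of *Mcl1*, which made up 106.5 of the remaining 135.6 TPM of the pro-survival sum in control pool 1 and 95.5 of 125.9 TPM in control pool 2.

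The other genes of the pathway were read from 8 fixed lists. Over these lists 4 of 72 tested genes were called, or 5.56%, against 5.29% of all genes tested. Some listed genes passed the count filter through the pools of a single condition and so could not be low there, and each one named is marked as such. Of 13 other Bcl2 family genes, 6 were tested and 0 were called. *Bok*, an effector-like member named after its values were seen, was the highest of them at 242.4 ± 20.0 TPM in control pools (SD, n = 3) and 192.2 ± 3.88 TPM in exposed pools (SD, n = 2). It had 6327, 6346 and 5380 counts in the controls, against 5031 and 4754 after exposure, a log2 fold change of -0.17. The largest differences on the list were not called. *Pmaip1*, which encodes the BH3-only protein Noxa, had 376, 36 and 32 counts in the controls, against 199 and 270 after exposure, and passed the filter through the exposed pools alone. Without control pool 1 it was called higher (log2 fold change 2.97, adjusted p = 0.0777). *Bcl2l13*, a mitochondrial family member, had a log2 fold change of 0.60 (SE 0.25, adjusted p = 0.260), and *Hrk*, a neuronal BH3-only gene, 0.30.

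Downstream of the mitochondria, 15 of 17 genes of cytochrome c release and caspases were tested, with 0 called and a median log2 fold change of -0.020. *Dffb*, the nuclease that cuts DNA in dying cells, was at 2.30 (SE 1.20, adjusted p = 0.351) and passed the filter through the exposed pools alone. *Apaf1*, the scaffold of the apoptosome, had 556, 323 and 825 counts in the controls, against 46 and 258 after exposure, a log2 fold change of -1.77 (SE 0.84, adjusted p = 0.307). *Endog*, a mitochondrial nuclease, was at -1.23 (adjusted p = 0.311). *Apaf1* and *Endog* passed the filter through the control pools alone. *Casp9*, the caspase that Apaf1 activates, was named after its values were seen. It had 694, 1863 and 1930 counts in the controls, against 3448 and 2653 after exposure, with no overlap, and a log2 fold change of 1.18 (SE 0.41, adjusted p = 0.196). DESeq2 called it higher (adjusted p = 0.0658). *Apaf1* and *Casp9*, whose proteins form a complex, had estimates of opposite sign, and neither was called by edgeR. Given the filter, *Apaf1* could not be low in the controls, so nothing is drawn from the signs.

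Of 9 caspase inhibitors, 5 were tested and 0 were called. *Birc3*, an inhibitor of apoptosis protein, had 42, 30 and 0 counts in the controls, against 189 and 264 after exposure, with an adjusted p of 0.248. It passed the filter through the exposed pools alone. Of the alternatives, it was called higher without control pool 3 (adjusted p = 0.0990) and with spike-in scaling (adjusted p = 0.0283). *Cflar*, which blocks caspase-8, had a log2 fold change of 1.01, also after passing the filter through the exposed pools alone, and *Birc6* of 0.31. The death receptor list had 3 of 8 genes tested and 0 called. *Tnfrsf21*, death receptor 6, was among the most abundant genes of the pathway at 954.3 ± 39.0 CPM in control pools (SD, n = 3) and 977.4 ± 65.2 CPM in exposed pools (SD, n = 2), and its log2 fold change was 0.03. *Tnfrsf1a*, which passed the filter through the exposed pools alone, was at 2.68 (adjusted p = 0.373) and *Tradd* at -0.08.

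Of 16 upstream regulators, 14 were tested, 2 were higher in exposed pools and 0 lower by edgeR. DESeq2 called 3 higher and 3 lower (*Jun*, *Map3k5* and *Trib3*), beside 726 higher and 768 lower among all 10025 genes tested. Without control pool 1, edgeR called 1 higher and 2 lower (*Foxo3* and *Jun*), so the split by direction depended on the setting. The genes lower under these settings were named after their values were seen. *Cdkn1a*, which encodes the cell cycle inhibitor p21, a target of p53, rose. It had 8626, 5947 and 8661 counts in the controls, against 45789 and 36038 after exposure. Every exposed pool was far above every control pool, and the log2 fold change was 2.52 with an SE of 0.24 (adjusted p = 0.00461). It was called under every alternative run. *Atf4*, a transcription factor of the integrated stress response, had 10187, 10224 and 10584 counts in the controls, against 15889 and 12921 after exposure, a log2 fold change of 0.61 (SE 0.15, adjusted p = 0.0954). *Atf4* was not called with spike-in scaling (adjusted p = 0.9996) or with the replicate block (0.291). Its call was lost without any one of the 5 libraries, with adjusted p-values from 0.107 to 0.505. *Bbc3*, which like *Cdkn1a* is a target of p53, was at -0.16, as given above. *Mdm2*, another target of p53 and named after its values were seen, was at 0.07 (adjusted p = 0.912). *Trp53*, which encodes p53, was named after its values were seen. It had 106, 232 and 360 counts in the controls, against 899 and 648 after exposure, a log2 fold change of 1.87 that was not called (SE 0.55, adjusted p = 0.140). *Trp53* passed the filter through the exposed pools alone. It was called higher by DESeq2 (adjusted p = 0.0314) and by edgeR without control pool 3 (adjusted p = 0.0777).

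Of 18 genes of the survival kinases and 14-3-3 proteins, which bind phosphorylated Bad, 15 were tested. By edgeR 1 was called, and 2 without control pool 1 or control pool 3. DESeq2 called 4 of them higher, beside 726 higher and 768 lower among all 10025 genes tested. *Ywhag*, 14-3-3 gamma, rose, with 1676, 2017 and 2078 counts in the controls, against 4287 and 3307 after exposure, a log2 fold change of 1.11 (SE 0.22, adjusted p = 0.0502). *Ywhag* was not called with spike-in scaling (adjusted p = 0.9996) or with the replicate block (0.288). The call was lost without control pool 2, exposed pool 1 or exposed pool 3, with adjusted p-values up to 0.357. *Akt1*, a kinase of Bad named after its values were seen, had 8626 counts in control pool 1 and 445 to 1202 in the other 4 libraries, and was not called.

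Of 16 receptors for survival factors, 6 were tested and 1 was called. *Fgfr1*, a receptor for fibroblast growth factors, had 3, 8 and 23 counts in the controls, against 175 and 197 after exposure, a log2 fold change of 4.16 (SE 0.90, adjusted p = 0.0679). It passed the filter through the exposed pools alone, and the call was lost with edgeR's filterByExpr (adjusted p = 0.223) and with no count filter (adjusted p = 0.303). The call was lost with the replicate block (adjusted p = 0.305) and kept with spike-in scaling (0.00632). It was also lost without control pool 2, exposed pool 1 or exposed pool 3, with adjusted p-values up to 0.466. All 8 genes that control turnover of member proteins were tested and 0 were called, with a median log2 fold change of 0.025. In these 5 lists without a call by edgeR, the genes with an unadjusted p under 0.05 numbered 1 in each of the other Bcl2 family, the caspase and the inhibitor lists and 0 in the death receptor and turnover lists, and DESeq2 called only *Casp9*.

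**Figure D5:**
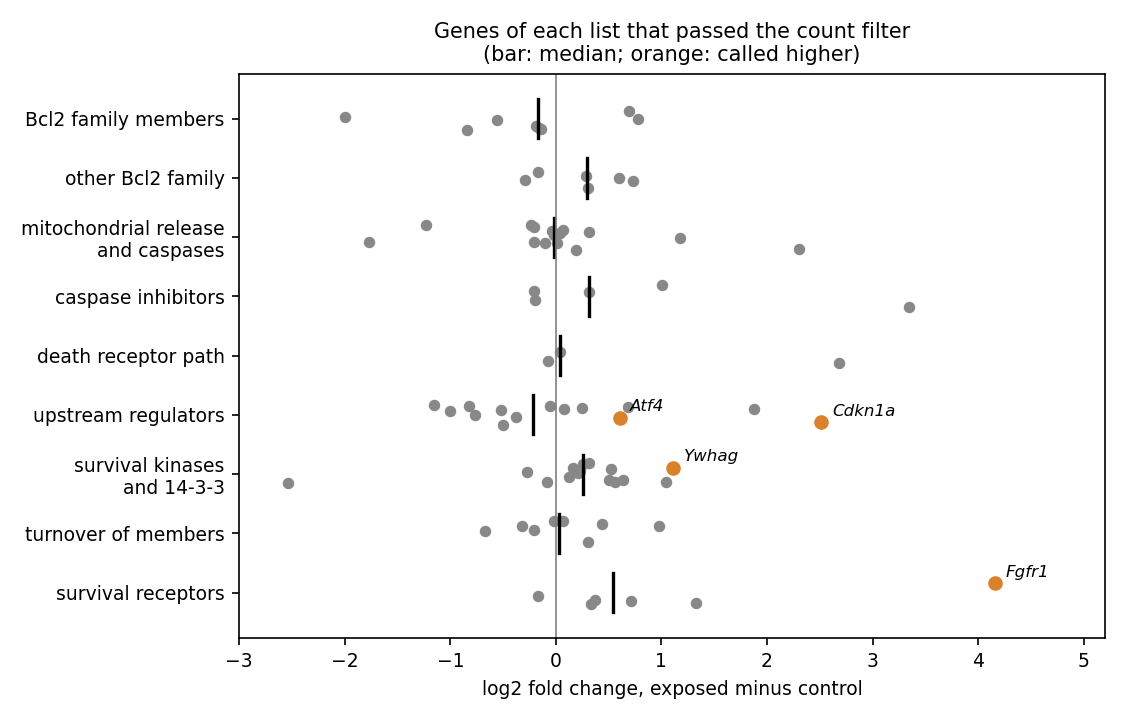
Log2 fold change of each tested gene of the 8 pathway lists and of the members, with called genes marked. The called genes are *Cdkn1a* at 2.52, *Atf4* at 0.61, *Ywhag* at 1.11 and *Fgfr1* at 4.16, all higher in exposed pools, and *Fgfr1* passed the count filter through the exposed pools alone.

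Markers of other cell types were read beside the members. Of the 14 myeloid markers 7 were tested and 1 was called, *Fcer1g*, an immunoglobulin receptor chain, at a log2 fold change of 2.63 (adjusted p = 0.0798). *Fcer1g* had 241, 107 and 74 counts in the controls, against 776 and 851 after exposure. It passed the filter through the exposed pools alone, and its call was lost with filterByExpr (adjusted p = 0.166). All 7 tested had a log2 fold change above 0, with a median of 1.98. For 5 of the 7 both exposed pools lay above every control pool, while 40.0% of all tested genes did not overlap on either side. Besides *Fcer1g* these were *Ptprc*, *Cd14*, *Tyrobp* and *S100a9*, named after their values were seen. They too passed the filter through the exposed pools alone. *Ptprc* had 0, 54 and 1 counts in the controls, against 542 and 517 after exposure. *Csf1r*, a receptor of macrophages also named after its values were seen, had 866, 0 and 0 counts in the controls, against 788 and 66 after exposure. *Bcl2a1a*, a pro-survival gene of blood cells named after its values were seen, followed the same libraries with 67, 0 and 0 counts and then 13 and 3, but its near-identical copies make its count uncertain. *Bcl2* was highest in control pool 1 and lowest in exposed pool 1, the 2 libraries with the highest myeloid sums. It was also below every control pool in both exposed pools, where the 5 markers above were higher. Whether myeloid RNA bears on *Bcl2* was not tested. None of the basal and lymphoid markers was tested, and their sums were 0.359 to 4.01 TPM and 0 to 1.77 TPM. Sustentacular markers summed to 261, 272 and 85.5 TPM in control pools and 217 and 109 TPM in exposed pools, lower in control pool 3 than in the other libraries. Of 10 markers of mature OSNs, 4 fell (*Rtp1*, *Cngb1*, *Cnga2* and *Cnga4*), by 1.07, 0.91, 0.83 and 0.53 on the log2 scale. Of 6 immature markers, 1 was called, *Gap43*, higher by 0.94. The rest of that list, named after its values were seen, was not called by edgeR and went both ways. *Gng8*, *Dpysl3* and *Stmn2* were at 1.13, 1.31 and 0.19, and *Dpysl5* and *Lhx2* at -0.69 and -2.22. The calls of *Fcer1g*, of *Gap43* and of the 4 mature markers were all lost without exposed pool 1, with adjusted p-values from 0.108 to 0.505. Without exposed pool 3 all but that of *Rtp1* were lost, with adjusted p-values from 0.128 to 0.242. Leaving out control pool 2 ended the calls of *Cnga4*, *Cngb1*, *Fcer1g* and *Gap43* (0.149 to 0.210), control pool 3 those of *Cnga4* (0.117) and *Gap43* (0.108), and control pool 1 that of *Gap43* (0.107). None of these marker calls was kept with spike-in scaling (adjusted p from 0.115 to 0.9996) or with the replicate block (0.1255 to 0.3137). The part of these markers in the values of the members was not tested.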

How the data were processed

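Polyadenylated RNA of sorted *Olfr151*-transcribing neurons was sequenced for 3 control and 2 exposed pools, and samples were grouped by their labels. Per the labels and file headers, the authors aligned reads with STAR 2.7.0a to GRCm38 with the reporter and spike-in sequences and deposited raw counts per gene, made with featureCounts 1.6.3 without regard to strand. The submitters' notes also name DESeq2 1.30.1 in R 4.0.3. Reads mapping to several places or to exons of several genes were not counted, which lowers genes with near-identical copies and, for the 6 members that share exon bases with another gene, leaves those bases out. Reads from opposite strands cannot be told apart. Symbols were assigned to 55144 genes through GENCODE M21, and 267 stayed unnamed. Members were looked up by gene identifier.

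Counts were tested in R 4.3.3 with edgeR 4.0.16 (TMM scaling, robust glmQLFit and glmQLFTest, condition as the only factor, all 5 libraries), after leaving out spike-in rows and genes that reached 143 counts throughout neither condition. That number is where the density of log2(count + 1) has its local minimum. P-values were adjusted by Benjamini-Hochberg over all tested genes, and confidence intervals are 95% intervals of that fit. The study's own test, DESeq2's Wald test, was run as an alternative with DESeq2 1.42.0, beside other scalings, filters and thresholds, a replicate block and the omission of each library. TPM used the exon lengths of the files. Promoter windows came from RefSeq by symbol, with all 10 members matched. Scripts used Python 3.11.15, and the test was checked on simulated data.

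The members and lists were chosen with earlier results of these data known. Named are all members, called list genes or else the 3 tested genes of a pathway list with the largest log2 fold change, and the 3 genes nearest to the member with the largest difference. Other named genes are marked in the text. The genes that the rule selects from the turnover list are not reported here.

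Control and exposed pools share the numbers 1 and 3, and the labels say that pools of both conditions were made on each of the days, without tying a number to a day. The pool numbers were therefore not taken as pairs.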

Additional observations from a re-analysis of the deposited data

How the results depend on the processing

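All 8 tested members kept their direction under the other scalings, filters and thresholds, DESeq2 and the replicate block, and none was called outside the cases given here. Members called lower numbered 1, *Mcl1*, with DESeq2's Wald test, and 0 to 1 with a library left out. *Bax* ranged from -0.27 to 0.063 with a library left out (above 0 without control pool 1) and *Bbc3* from -0.71 to 0.22 (above 0 without exposed pool 1), and the cause was not tested. Against 344 genes higher and 186 lower, 92 and 48 were called with spike-in scaling, 162 and 74 with edgeR's filterByExpr, 190 and 91 at an adjusted p of 0.05, and 726 and 768 with DESeq2. Leaving out a library gave 93 to 353 higher and 19 to 437 lower. The lower counts came without exposed pool 1, and the higher counts without control pool 3. Spike-in scaling moved the median over all genes to -0.23 on the log2 scale, and *Bcl2* was then at -0.87 and *Mcl1* at -2.09. The replicate block left 11 genes higher and 1 lower, with *Mcl1* at -1.02. Same-numbered pools deviated from their group means with correlations of 0.0286 and -0.0689, and only 2 pairs exist. The ratio of pro-survival to other members moved to 3.48 in control and 1.32 in exposed pools without the highest member of each class. With 3 and 2 pools, the 95% intervals of all 8 tested members reach beyond 0.5 in size. *Bak1* and *Bid* had too few counts to pass the filter, and the cause was not tested. The order of the members by control level was the same with CPM per exon length and, in an alternative chosen after seeing the data, without the shared exon bases. The list calls without control pool 3 were also read after seeing the data.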
